A study of Mus musculus with 9 samples.

Results

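Wnt proteins are secreted, lipid-modified ligands that bind Frizzled receptors. In the canonical branch they stop the breakdown of beta-catenin, which then acts in the nucleus with the LEF/TCF transcription factors, while other branches act on cell shape and movement without beta-catenin. Secreted frizzled-related proteins (SFRPs) bind the ligands outside the cell, Dickkopf proteins (DKKs) mostly act on the LRP co-receptors, and the response to beta-catenin is commonly read from its target genes, such as Axin2. In the lung, Wnt ligands from fibroblasts help to maintain neighbouring epithelial stem cells, and the pathway has been studied widely in fibrosis.

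A set of genes of this system, chosen by name with earlier results of these data known, was followed in lung fibroblasts of aged mice. They were 4 ligands (Wnt2, Wnt4, Wnt5a and Wnt11), 4 secreted antagonists (Sfrp1, Sfrp2, Dkk2 and Dkk3) and 2 targets (Axin2 and Lef1), that is, 10 of the 43346 genes in the table, and all 10 were among the 16877 genes that passed the filter on low counts. The mice carried Col1a1-GFP, a reporter in which the collagen I promoter drives green fluorescent protein, and were 72 weeks old by the labels, male and on an FVB background by the study's methods. Aged sham mice (n = 4) received intratracheal saline and aged bleo mice (n = 5) received bleomycin, a drug that injures the lung and leads to fibrosis, each as 1 dose. On day 30 the lungs were digested and GFP+, CD45-, CD31- and EpCAM- cells were sorted. The gate thus selected cells that held the reporter protein and was meant to shed leukocytes, endothelial cells and epithelial cells. Macrophage and neutrophil markers were still present in the libraries. The comparison asks how Wnt genes differed between fibroblasts of injured and uninjured aged lungs.

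Each library came from a separate mouse and held 49921946 to 62370512 counts in aged sham and 53833507 to 68260600 in aged bleo, so that 3 counts were worth 0.0409 to 0.0605 CPM (counts scaled to library size with TMM factors). A gene was called when its false discovery rate (FDR, the Benjamini-Hochberg adjusted p of edgeR's quasi-likelihood test) was under 0.10 and its fold change was over 1.5. Fibroblast markers were high in every library, with a summed level of 24805 to 30568 CPM in aged sham against 54998 to 72435 CPM in aged bleo. The higher sum was carried by Col1a1, the gene whose promoter drives the reporter, Col1a2 and Col3a1, all called higher. Of the other markers, Dcn was called lower (mean 8122 to 2795 CPM) and Pdgfrb higher (358 to 565 CPM). Pdgfra, Lum and Thy1 were not called. The names of all 4 aged sham libraries and of aged bleo 4 end in the same number, 4, which the other aged bleo libraries do not share, and what that number stands for is not given in the sources used here. In bulk libraries, fewer cells of a type and less RNA per cell cannot be told apart.

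Of the 10 genes, 3 were called higher in aged bleo (Sfrp2, Dkk2 and Lef1), 1 was called lower (Wnt11) and 6 were not called. Over all genes tested, 12.3% were called higher and 11.5% lower. Each of the antagonists that rose was less abundant than the other gene of its family followed here, and the ligand that fell was the second in abundance. The median log2 fold change was 0.44 over the 10 genes and 0.0064 over all genes tested, and the median of its size without sign was 0.49 and 0.29, respectively. Of the 6 genes not called, 4 (Wnt2, Wnt5a, Sfrp1 and Axin2) had an FDR under 0.10 with a fold change under 1.5, as did 20.9% of all genes. Without aged sham 1, aged sham 4 or aged bleo 1, Wnt5a and Sfrp1 alone of these 4 stayed under that FDR, and with the replicate number as a block Axin2 alone did. Wnt2 also missed it without aged sham 2, aged sham 3 or aged bleo 3, with no filter and with limma on log2 CPM. Without both libraries numbered 4, Wnt2 and Wnt5a missed it. The values of the groups did not overlap for 4 genes higher in aged bleo and 2 lower, while 16.1% of all genes did not overlap with aged bleo higher and 16.1% with aged bleo lower.

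**Figure D1:**
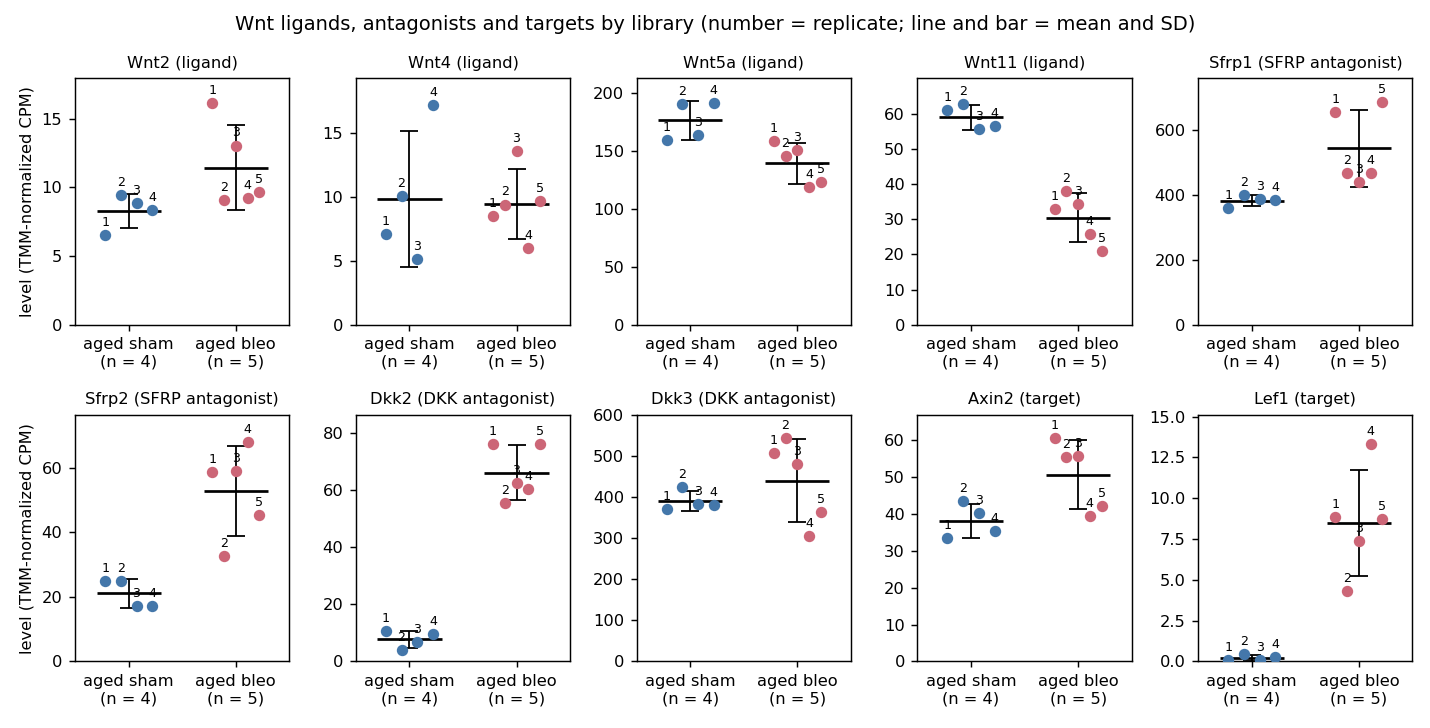
Level of the 10 Wnt genes in each library, in TMM-normalized CPM on linear axes that start at 0. Points are libraries with their replicate number, and the line and bar are the mean and SD of aged sham (n = 4) and aged bleo (n = 5). Dkk2, Lef1, Sfrp2, Sfrp1, Wnt5a and Wnt11 show no overlap between the groups.

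The DNA just before the start of the 4 called genes is printed because these genes carry the result and because Lef1 and its relatives bind DNA. The sequences are the last 100 bases before a RefSeq transcript start, 5' to 3' on the gene's strand, on GRCm38.p6. Capitals mark a TCF/LEF match (CTTTG followed by AA, AT, TA or TT, on either strand) or a TATA match (TATAAA on the gene's strand, starting 40 to 20 bases before the start). The letters of both motifs were chosen after the sequences had been seen.
Wnt11 (chr7:98835012-98835111, plus strand): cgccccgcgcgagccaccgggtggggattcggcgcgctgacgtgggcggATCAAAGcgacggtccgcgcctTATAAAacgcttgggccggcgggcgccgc
Dkk2 (chr3:132085192-132085291, plus strand): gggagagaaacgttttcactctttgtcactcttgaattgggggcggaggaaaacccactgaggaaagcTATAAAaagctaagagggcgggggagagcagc
Sfrp2 (chr3:83766221-83766320, plus strand): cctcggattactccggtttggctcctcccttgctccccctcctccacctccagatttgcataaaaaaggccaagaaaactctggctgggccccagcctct
Lef1 (chr3:131110197-131110296, plus strand): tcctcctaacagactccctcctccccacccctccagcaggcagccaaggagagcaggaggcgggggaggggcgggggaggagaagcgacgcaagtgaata
The Wnt11 window, the first of 2 in the table, held a TCF/LEF match that started 51 bases before the start, with a TATA match at 29 bases, and Dkk2 held a TATA match at 32 bases. No match stood in the Sfrp2 window or in the Lef1 window shown. Over windows of 300 bases (250 before the start and 50 after), 16.9% of the 27025 promoters in the table held the TCF/LEF letters, and 2.22% held the TATA letters at that distance. Of 10 genes, 7 had an entry, and the windows of Axin2, Wnt2 and Wnt4 held no match. Of the 4 windows of Lef1, the match in 1 lay 147 bases before a start further into the gene. GC content was 71.3% in the Wnt11 window and 57.7% in that of Dkk2, against a median of 52.7% over all promoters. A match is only a match of letters, and binding was not measured.

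Wnt11, a ligand that mostly signals without beta-catenin, fell in every injured library. On mm10, Wnt11 (ENSMUSG00000015957) lies on the plus strand at chr7:98835112-98855195. Its level was 61.1, 62.7, 55.5 and 56.3 CPM in aged sham 1 to 4 and 33.0, 38.1, 34.3, 25.8 and 21.1 CPM in aged bleo 1 to 5. The groups were far apart, since the lowest uninjured library stood well above the highest injured one, and aged bleo 5 was the lowest of all. The mean fell from 58.9 ± 3.54 CPM (SD, n = 4) to 30.5 ± 6.87 CPM (SD, n = 5), a log2 fold change of -0.95 (SE 0.16, 95% interval -1.31 to -0.60, FDR 0.00250).

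Wnt5a, the ligand of the group with the highest level per length and another that mostly acts without beta-catenin, was lower without passing the fold threshold. Its level was 159.6, 190.5, 163.9 and 191.0 CPM in the aged sham libraries and 158.4, 145.4, 151.1, 118.8 and 122.9 CPM in the aged bleo libraries. The groups did not overlap, but aged sham 1 and aged bleo 1 nearly met. The log2 fold change was -0.34 (SE 0.11, 95% interval -0.58 to -0.10, FDR 0.0376).

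Wnt2, a canonical ligand of lung mesenchyme that is needed for lung formation in the embryo, was 6.49, 9.41, 8.82 and 8.33 CPM in aged sham against 16.1, 9.10, 13.0, 9.20 and 9.67 CPM in aged bleo. Aged bleo 1, 3 and 5 lay above all uninjured libraries, aged bleo 5 by little, and the groups overlapped (log2 fold change 0.47, SE 0.20, FDR 0.0950, not called). Wnt4, a ligand best known from kidney and gonad development, was 7.06, 10.0, 5.10 and 17.2 CPM in aged sham against 8.50, 9.40, 13.6, 5.96 and 9.69 CPM in aged bleo. The aged sham range covered that of aged bleo (log2 fold change -0.06, 95% interval -0.84 to 0.72, FDR 0.905), and without aged sham 4, the highest library, the log2 fold change was 0.35.

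Per length, as the deposited FPKM, the 4 ligands kept the order Wnt5a, Wnt11, Wnt2, Wnt4 in both groups. Wnt5a was at 9.45 ± 0.877 FPKM (SD, n = 4) in aged sham and 7.65 ± 0.840 FPKM (SD, n = 5) in aged bleo, and Wnt11 was at 6.80 ± 0.468 and 3.59 ± 0.743 FPKM. Wnt2 and Wnt4 overlapped as neighbours in aged sham, at 1.54 ± 0.246 and 0.980 ± 0.512 FPKM, as Wnt11 and Wnt2 did in aged bleo. Summed over the 4 ligands the level was 17.5 to 20.5 FPKM in aged sham and 12.2 to 16.6 FPKM in aged bleo. The Wnt11 share of that sum was 36.4% ± 3.19 (SD, n = 4) in aged sham and 24.9% ± 3.28 (SD, n = 5) in aged bleo, and that of Wnt2 was 8.19% ± 1.11 and 15.0% ± 2.54. Neither share overlapped between the groups, while the Wnt5a share stayed between 48.8% and 55.9% in every library. Shares of the same sum depend on each other, and the level of Wnt2 itself overlapped between the groups.

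**Figure D2:**
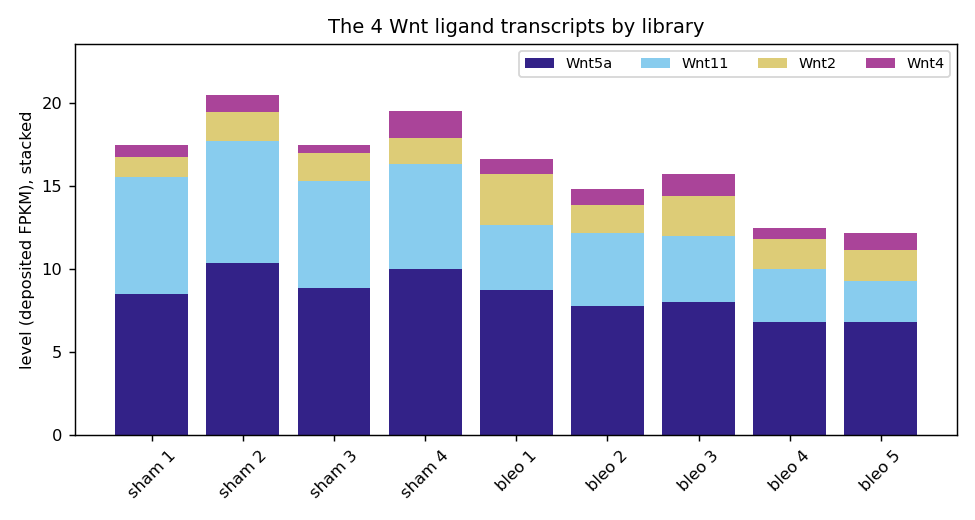
Level of the 4 Wnt ligands in each library, as deposited FPKM stacked on a linear axis that starts at 0, with 1 bar per library and no error bars. The summed level is 17.5 to 20.5 FPKM in the 4 aged sham libraries and 12.2 to 16.6 FPKM in the 5 aged bleo libraries.

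Among the 4 secreted antagonists followed in every library, Dkk2 rose by the largest fold. Dkk2 (ENSMUSG00000028031) lies on the plus strand at chr3:132085292-132180293 on mm10, and its product binds the co-receptors LRP5 and LRP6. It was at 10.7, 4.12, 6.80 and 9.50 CPM in aged sham 1 to 4 and at 76.2, 55.4, 62.4, 60.5 and 76.0 CPM in aged bleo 1 to 5. Every injured library was several times above every uninjured one, and the injured libraries differed little among themselves. The mean rose from 7.78 ± 2.94 CPM (SD, n = 4) to 66.1 ± 9.49 CPM (SD, n = 5), a ratio of 8.50 and a log2 fold change of 3.09 (SE 0.27, 95% interval 2.48 to 3.69, FDR 9.0e-05), which placed it at rank 138 of the genes tested by p.

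Dkk3, a divergent family member that does not bind the LRP co-receptors in the usual way, was abundant in both groups. Its level was 370.6, 425.9, 384.0 and 380.5 CPM in aged sham against 507.0, 543.8, 480.3, 305.4 and 364.0 CPM in aged bleo. Aged bleo 1 to 3 stood above all uninjured libraries and aged bleo 4 and 5 below them, so that no direction was shared (log2 fold change 0.17, SE 0.17, 95% interval -0.20 to 0.55, FDR 0.448). Dkk2 made up 1.81% ± 0.743 (SD, n = 4) of the summed FPKM of the pair in aged sham and 12.5% ± 3.15 (SD, n = 5) in aged bleo.

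Sfrp2, a secreted frizzled-related protein made by activated fibroblasts in several organs, rose. It lies on the plus strand at chr3:83766321-83774316 on mm10 and was at 24.8, 24.98, 17.3 and 17.2 CPM in aged sham against 58.9, 32.5, 59.1, 68.1 and 45.3 CPM in aged bleo. The groups did not overlap, and aged bleo 2 came closest to the uninjured range. The mean rose from 21.1 ± 4.44 CPM (SD, n = 4) to 52.8 ± 13.9 CPM (SD, n = 5), a log2 fold change of 1.32 (SE 0.22, 95% interval 0.82 to 1.83, FDR 0.00277). Gm26771, which overlaps Sfrp2 on the other strand, was at 2.61 to 4.35 CPM in aged sham against 6.08 to 13.5 CPM in aged bleo and was called higher too (log2 fold change 1.52, SE 0.23, FDR 0.00177). How strand was counted is not given in the sources used here, so reads of the pair cannot be told apart.

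Sfrp1, which is closely related to Sfrp2 and much more abundant, was 359.6, 398.6, 386.8 and 383.9 CPM in aged sham against 657.2, 466.6, 440.0, 469.3 and 687.0 CPM in aged bleo. All injured libraries were higher than all uninjured ones, by a wide margin in aged bleo 1 and 5 only. Its log2 fold change was 0.51 (SE 0.15, 95% interval 0.17 to 0.85, FDR 0.0293), under the fold threshold. Summed over the 4 antagonists the level was 86.7 to 98.2 FPKM in aged sham and 110.6 to 151.0 FPKM in aged bleo, and Dkk3 with Sfrp1 gave most of it in both groups (48.8 ± 3.61 and 36.7 ± 1.88 FPKM in aged sham, 56.1 ± 11.8 and 53.6 ± 12.0 FPKM in aged bleo).

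By mean level per length the antagonists stayed in the order Dkk3, Sfrp1, Sfrp2, Dkk2, but their places among the 10 genes moved. Dkk3 and Sfrp1 overlapped in aged bleo, where Sfrp1 was above Dkk3 in aged bleo 4 and 5. Dkk2 was below every gene but Lef1 in aged sham, at 0.880 ± 0.324 FPKM (SD, n = 4) and overlapping with Wnt4, and reached 7.71 ± 1.17 FPKM (SD, n = 5) in aged bleo, a level that overlapped with that of Wnt5a. Sfrp2 went from 4.11 ± 0.896 FPKM, below Wnt5a and Wnt11, to 10.6 ± 2.98 FPKM, a range that overlapped with Dkk2. These FPKM values were not tested.

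**Figure D3:**
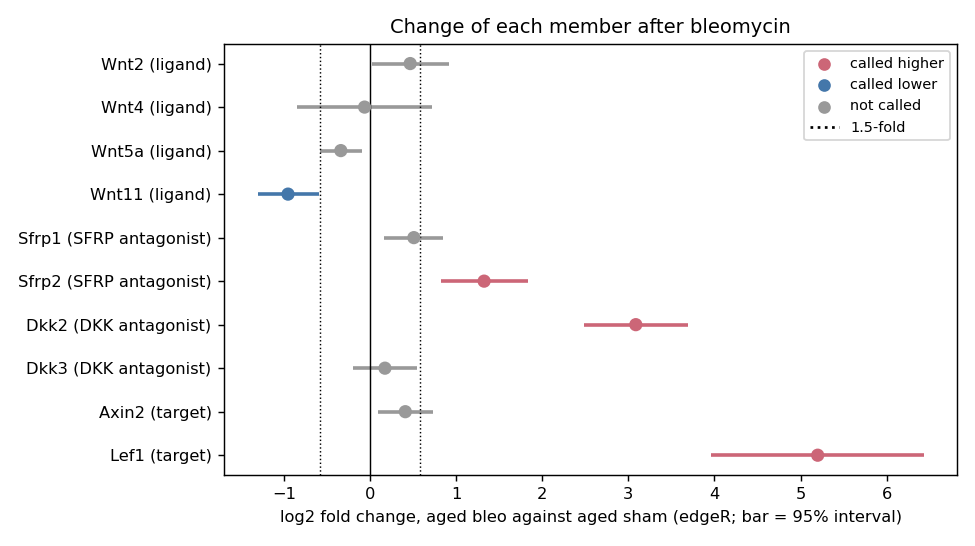
Log2 fold change of each of the 10 Wnt genes in aged bleo (n = 5) against aged sham (n = 4) from edgeR, with 95% intervals as bars, red for called higher, blue for called lower and grey for not called. Dotted lines mark a fold change of 1.5 in either direction. Lef1 (5.20) and Dkk2 (3.09) stand furthest to the right, and Wnt11 (-0.95) stands furthest to the left.

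Of the 2 targets, Lef1 rose from near the floor and Axin2 did not pass the threshold. Lef1 encodes a transcription factor that is both a target of beta-catenin and its partner on DNA, and it is also expressed by T cells. It lies on the plus strand at chr3:131110471-131224356 on mm10. It had 6, 28, 5 and 12 counts in aged sham 1 to 4 (0.0969, 0.479, 0.0974 and 0.242 CPM) and 475, 242, 394, 975 and 477 counts in aged bleo 1 to 5 (8.84, 4.30, 7.36, 13.3 and 8.73 CPM). Every uninjured library was near the floor of detection and every injured one was well above it, with aged bleo 4 highest and aged bleo 2 lowest. The mean went from 0.229 ± 0.180 CPM (SD, n = 4) to 8.51 ± 3.25 CPM (SD, n = 5), a log2 fold change of 5.20 (SE 0.55, 95% interval 3.96 to 6.43, FDR 2.4e-04). Per length, Lef1 still had the lowest mean of the 10 genes after injury, at 0.426 ± 0.175 FPKM. It overlapped with Wnt4, since in aged bleo 4 Lef1 was at 0.691 FPKM and Wnt4 at 0.639 FPKM.

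Because T cells make Lef1, the markers of T and NK cells were set beside it. Their summed level was 6.00 to 15.5 CPM in aged sham against 2.18 to 35.3 CPM in aged bleo. Of 10 markers 8 were tested and 0 were called by edgeR, with a median log2 fold change of 0.50. Aged bleo 4 had the highest value of both the markers and Lef1. Aged bleo 1 had the lowest marker sum of all 9 libraries, 2.18 CPM, with Lef1 at 8.84 CPM, and aged sham 4 had 15.5 CPM of markers with Lef1 at 0.242 CPM. Without aged sham 4 and aged bleo 4, the pair with the most T and NK cell transcripts, the log2 fold change of Lef1 was 4.98. The part of T cells in the level of Lef1 was not tested.

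Axin2, a scaffold of the complex that marks beta-catenin for breakdown and a widely used readout of the canonical branch, was 33.5, 43.4, 40.2 and 35.3 CPM in aged sham against 60.4, 55.4, 55.8, 39.5 and 42.0 CPM in aged bleo. Aged bleo 1 to 3 lay above all uninjured libraries, whereas aged bleo 4 and 5 lay within their range. The mean was 38.1 ± 4.52 CPM (SD, n = 4) and 50.6 ± 9.27 CPM (SD, n = 5), and the log2 fold change was 0.41 (SE 0.14, 95% interval 0.09 to 0.73, FDR 0.0512), under the fold threshold. Its level per length was 2.91 ± 0.383 FPKM in aged sham and 3.94 ± 0.658 FPKM in aged bleo, above that of Lef1 in both groups.

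The injured libraries did not rank alike across the 10 genes. Aged bleo 4 was the highest of its group for Sfrp2 and Lef1 and the lowest for Wnt4, Wnt5a, Dkk3 and Axin2. Aged bleo 2 was the lowest for Wnt2, Sfrp2, Dkk2 and Lef1 and the highest for Wnt11 and Dkk3, while aged bleo 1 was the highest for Wnt2, Wnt5a, Dkk2 and Axin2. Among the uninjured libraries, aged sham 2 was the highest for 7 of the 10 genes and aged sham 1 the lowest for 6. Aged bleo 4 alone, the injured library whose name ends as those of the uninjured ones do, set against the 4 aged sham libraries with the spread taken from those 4, gave log2 fold changes of 5.86 for Lef1, 2.97 for Dkk2, 1.71 for Sfrp2 and -1.17 for Wnt11. In the same setting Axin2 was at 0.07 (FDR 0.751) and Wnt2 at 0.17 (FDR 0.557), Dkk3 changed sign to -0.34 (FDR 0.0539), and Wnt4, Wnt5a and Sfrp1 were at -0.71, -0.55 and 0.31.

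The rest of the LEF/TCF family was measured beside Lef1, with Tcf7l2 named after its values were seen to complete the set. Tcf7, which encodes the factor TCF1 and, like Lef1, is known from T cells, rose from 4.71 ± 0.627 CPM (SD, n = 4) to 31.4 ± 8.83 CPM (SD, n = 5), a log2 fold change of 2.73 (SE 0.22, FDR 6.5e-05). Tcf7l1, which mostly acts as a repressor of Wnt targets, fell from 63.4 ± 4.33 to 36.5 ± 9.92 CPM (log2 fold change -0.80, SE 0.19, FDR 0.0114). Tcf7l2 was at 31.4 ± 1.35 and 28.1 ± 2.24 CPM and was not called (log2 fold change -0.16, FDR 0.115). Of the summed FPKM of the family, Tcf7l1 made up 72.5% to 76.4% in aged sham and 22.7% to 51.1% in aged bleo, Tcf7 made up 7.63% to 9.54% and 32.2% to 61.0%, and Lef1 made up 0.0496% to 0.252% and 2.12% to 5.63%. The Tcf7l2 share was 15.8% to 19.0% in aged sham and 10.6% to 14.6% in aged bleo. None of these 4 shares overlapped between the groups. Shares of the same sum depend on each other, so a share can move without its gene, and Tcf7l2 itself was not called.

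**Figure D4:**
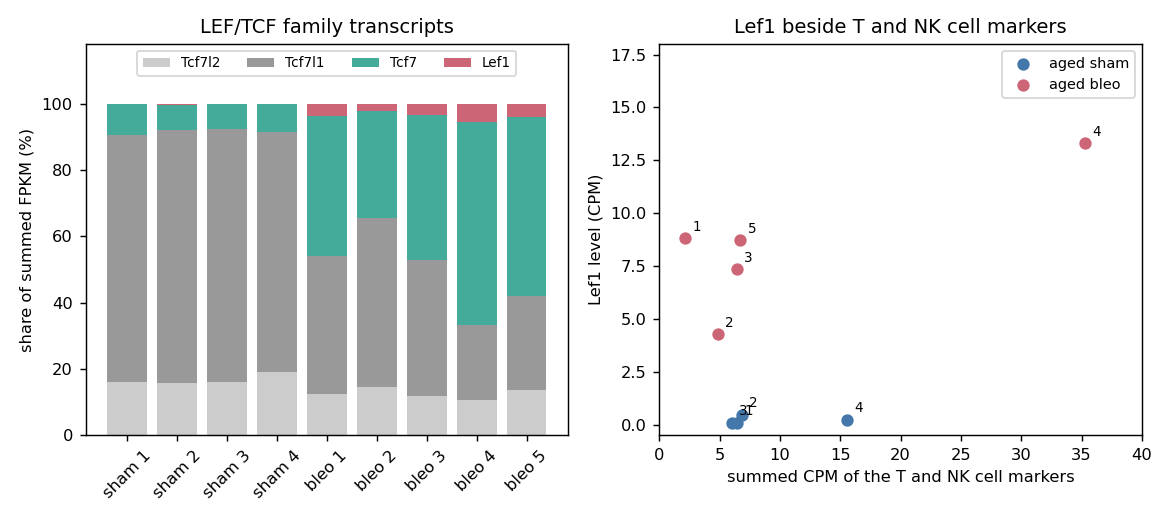
Left, share in percent of the summed deposited FPKM of the LEF/TCF family taken by Lef1, Tcf7, Tcf7l1 and Tcf7l2 in each library. Right, level of Lef1 against the summed level of the T and NK cell markers, both in CPM on linear axes, with 1 point per library and its replicate number. Tcf7l1 takes 72.5% to 76.4% in the aged sham libraries and 22.7% to 51.1% in the aged bleo libraries, and Lef1 is at 4.30 CPM or more in all aged bleo libraries.

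The rest of the pathway was described with 6 lists of 89 genes in all, of which 73 were tested, with a median log2 fold change of 0.07. Of those tested, 19 were called higher (26%, against 12.3% of all genes) and 10 lower (13.7%, against 11.5%). The lists, like the 10 genes, were chosen with earlier results of these data known. Of the called genes, Wnt7b and Wnt10a passed the filter on low counts only through aged bleo, as Lef1 did. They could therefore not have been called lower. Of the other ligands and secretion genes, 10 of 17 were tested, 4 were called higher (Wnt6, Wnt7b, Wnt10a and Porcn) and 2 lower (Wnt2b and Wnt10b). Wnt10a, a canonical ligand, rose from near the floor, at 0.187 ± 0.0503 CPM, to 15.8 ± 5.42 CPM (log2 fold change 6.37, SE 0.36, FDR 1.2e-05). Wnt7b, best known from lung epithelium, was at 0.0202 to 0.117 CPM in aged sham against 0.658 to 3.19 CPM in aged bleo (log2 fold change 4.33, SE 0.57, FDR 7.7e-04). Porcn, which adds the lipid that Wnt proteins need for secretion, rose from 11.4 ± 0.508 to 29.9 ± 7.86 CPM (log2 fold change 1.39). The 2 that fell were Wnt2b, from 49.3 ± 1.90 to 10.4 ± 6.61 CPM (log2 fold change -2.25, SE 0.45, FDR 0.00576), and Wnt10b, from 35.1 ± 1.54 to 9.92 ± 2.69 CPM (log2 fold change -1.82, SE 0.18, FDR 1.5e-04). Wls, the carrier of Wnt proteins to the cell surface, had the highest level per length of the list and was not called, at 194 ± 6.68 and 267 ± 32.2 CPM (log2 fold change 0.46).

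Of the receptors and co-receptors, 15 of 16 were tested, 5 were called higher (Fzd1, Fzd3, Ror2, Ryk and Ptk7) and 1 lower (Fzd4), with a median log2 fold change of 0.36. Ror2, Ryk and Ptk7 encode receptors that are not Frizzleds and are known mainly from signaling without beta-catenin. Ptk7 rose from 50.6 ± 9.36 to 239.8 ± 40.8 CPM (log2 fold change 2.24, SE 0.17, FDR 5.1e-05), and Ror2, a receptor for Wnt5a, from 19.9 ± 2.74 to 45.1 ± 4.24 CPM (log2 fold change 1.18, SE 0.11, FDR 1.3e-04). Fzd1, the Frizzled with the highest level per length, rose from 231 ± 23.8 to 483 ± 50.4 CPM (log2 fold change 1.06, SE 0.11, FDR 2.1e-04). Fzd4 was at 102 to 133 CPM in aged sham against 16.0 to 97.3 CPM in aged bleo (log2 fold change -1.21, SE 0.43, FDR 0.0548). Its call was lost without aged sham 1 (FDR 0.106), aged sham 4 (FDR 0.105) or aged bleo 5 (FDR 0.109). All 7 R-spondins and their LGR receptors, which amplify Wnt signals, were tested, and Rspo1 alone was called, falling from 32.0 ± 3.63 to 11.5 ± 4.57 CPM (log2 fold change -1.48, SE 0.29, FDR 0.00533), with a list median of -0.50.

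Of 14 further secreted antagonists and their partners, 7 were tested, with 4 called higher (Frzb, Wif1, Notum and Draxin), 2 lower (Sfrp4 and Sost) and a median log2 fold change of 1.17. Notum, an enzyme that removes the lipid of Wnt proteins and a target of beta-catenin itself, rose from 1.91 ± 0.627 to 23.6 ± 9.81 CPM (log2 fold change 3.63, SE 0.38, FDR 2.3e-04). Frzb, an SFRP, rose from 13.1 ± 2.53 to 42.8 ± 15.2 CPM (log2 fold change 1.71), and Wif1, which binds Wnt proteins directly, from 9.05 ± 0.864 to 24.7 ± 6.91 CPM (log2 fold change 1.45). In the other direction, Sfrp4, the list member with the highest level per length, fell from 250.2 ± 43.7 to 101 ± 48.0 CPM (log2 fold change -1.31, SE 0.33, FDR 0.0148). Sost, which encodes the LRP ligand sclerostin of bone, fell from 76.6 ± 33.3 to 17.7 ± 14.0 CPM (log2 fold change -2.11, SE 0.59, FDR 0.0228). The SFRP genes thus moved in both directions, with Sfrp2 and Frzb higher, Sfrp4 lower and Sfrp1 under the fold threshold.

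All 22 genes of the cytoplasmic and nuclear steps were tested, and Tcf7 was called higher and Tcf7l1 lower, with a list median of -0.02. Ctnnb1, the gene of beta-catenin itself, was at 519 ± 5.55 CPM in aged sham against 622 ± 50.7 CPM in aged bleo and was not called (log2 fold change 0.26, SE 0.08, FDR 0.0394). Of 13 further targets, 12 were tested, 5 were called higher (Nkd2, Wisp1, Ccnd1, Cd44 and Tnfrsf19) and 3 lower (Myc, Dact1 and Bambi), with a median of 0.43. Wisp1, a matricellular protein, rose from 14.6 ± 1.90 to 123 ± 56.0 CPM (log2 fold change 3.08, SE 0.33, FDR 2.7e-04), Tnfrsf19, a receptor of the TNF family, from 29.2 ± 9.25 to 114 ± 17.2 CPM (log2 fold change 1.96), and Nkd2, an inhibitor of Dishevelled, from 32.9 ± 3.45 to 89.4 ± 7.97 CPM (log2 fold change 1.44). Myc, a growth regulator, fell from 173 ± 24.0 to 58.0 ± 23.3 CPM (log2 fold change -1.58, SE 0.28, FDR 0.00360) and Dact1, a modulator of Dishevelled, from 302 ± 28.3 to 138 ± 59.6 CPM (log2 fold change -1.13). Bambi, a decoy receptor of the TGF-beta family, was at 24.9 ± 3.58 and 16.6 ± 2.12 CPM and passed the fold threshold narrowly (log2 fold change -0.59, SE 0.12, FDR 0.00715). Its call was lost under 11 of 20 alternatives, among them limma on log2 CPM and on FPKM, both other filters, the replicate block and leaving out aged sham 2 or 3 or aged bleo 3 or 5, each time through the fold change alone.

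**Figure D5:**
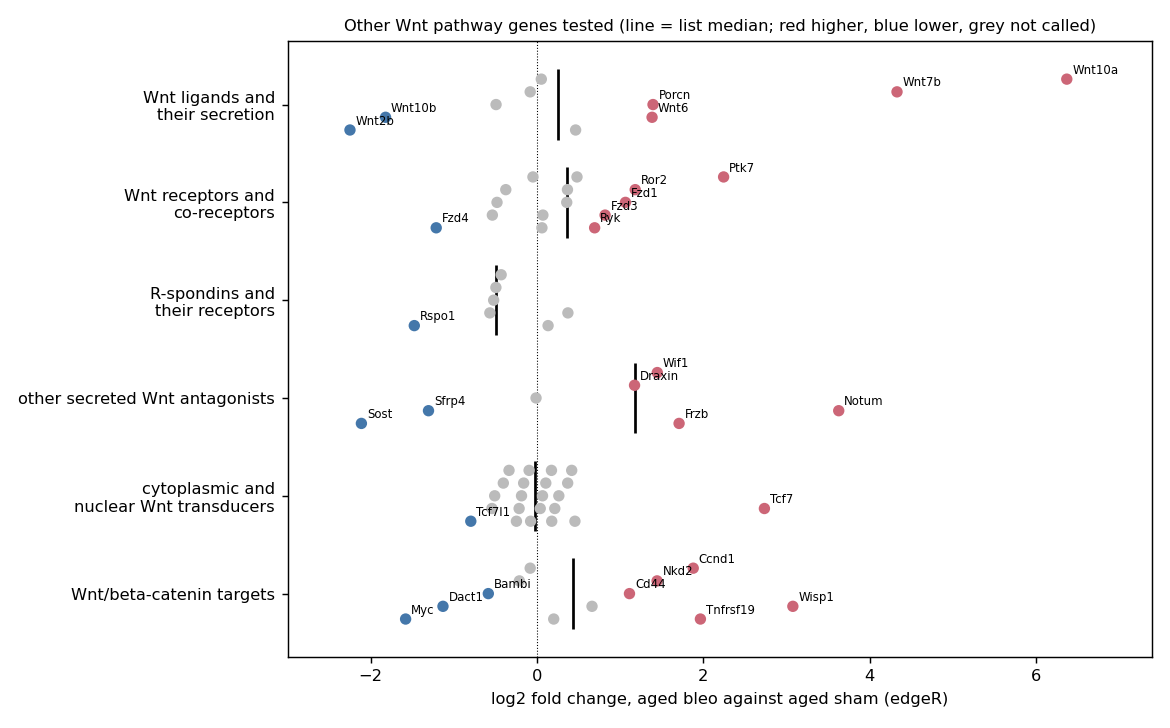
Log2 fold change, aged bleo (n = 5) against aged sham (n = 4), of the 73 other Wnt pathway genes tested, with 1 point per gene in 6 lists and the median of each list as a vertical line. Red points were called higher (19 genes), blue lower (10 genes) and grey not called. In the cytoplasmic and nuclear list, Tcf7 at 2.73 and Tcf7l1 at -0.80 are the called genes.

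Genes whose profile over the 9 libraries was most like that of Lef1, by the root mean square distance between standardized log2 CPM, were Mmp10 (0.101), Foxq1 (0.110) and Pmepa1 (0.119). Mmp10, a matrix metalloproteinase, was at 0.180 ± 0.108 CPM in aged sham against 7.28 ± 1.68 CPM in aged bleo, Foxq1, a transcription factor, at 0.986 ± 0.237 and 10.6 ± 2.96 CPM, and Pmepa1, a feedback inhibitor of TGF-beta signaling, at 271 ± 38.1 and 562 ± 36.3 CPM. Those most like Wnt11 were Numbl (0.0860), Ddah2 (0.0936) and RP23-81K14.2 (0.119). Numbl, a relative of the Notch inhibitor Numb, was at 134 ± 5.66 and 87.0 ± 14.2 CPM, and Ddah2, an enzyme family member that bears on nitric oxide synthesis, at 130 ± 6.13 and 64.2 ± 13.8 CPM.

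Markers of cell states and of other cells moved between the groups as well. All 9 adventitial fibroblast markers were called lower, with a summed level of 17701 to 19859 CPM in aged sham against 2828 to 10194 CPM in aged bleo. Aged bleo 4 and 5, the lowest for these markers, were also the lowest for Wnt11. This was not particular to the adventitial list. Aged bleo 4 and 5 were also the lowest for the alveolar fibroblast and endothelial sums and the highest for the fibrotic fibroblast sum. All 6 fibrotic fibroblast markers were called higher (257 to 416 and 3530 to 8674 CPM). Of the alveolar fibroblast markers 2 of 8 were called higher and 3 lower, of the smooth muscle and pericyte markers 1 of 9 higher and 2 lower, and of the general fibroblast markers 4 of 8 higher and 1 lower. Macrophage markers summed to 142 to 268 CPM in aged sham against 448 to 1511 CPM in aged bleo, with 4 of 9 called higher, and B cell markers to 3.35 to 10.9 and 0.949 to 2.44 CPM, with 4 of 5 called lower. Endothelial markers summed to 165 to 204 and 28.4 to 72.3 CPM (2 of 7 higher, 1 lower), a fall carried by Tek alone (161 ± 12.9 to 28.9 ± 18.8 CPM). Epithelial markers summed to 20.2 to 120 and 22.4 to 67.4 CPM (1 of 11 higher, 3 lower), and 0 of the neutrophil (170 to 1018 and 84.9 to 906 CPM) and mesothelial markers (28.6 to 83.9 and 35.4 to 126 CPM) were called by edgeR. No marker of these lists was at 0 in all libraries. The part of these shifts in the Wnt genes was not tested.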

How the data were processed

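RNA-seq of sorted Col1a1-GFP+ lung fibroblasts from 9 aged mice was used, with 1 library per mouse. The authors deposited a merged table of raw gene counts and FPKM. Per the labels' processing notes the tools were bcl2fastq, STAR 2.5.2b and featureCounts of Subread, with mm10 (GRCm38). The deposited counts were tested with edgeR 4.0.16 (TMM, quasi-likelihood fit) in R 4.3.3 on the 16877 genes whose average count reached 25, the filter and thresholds (FDR under 0.10, fold change over 1.5) being those of the study, and Benjamini-Hochberg adjustment ran over all of them. The deposited FPKM values, scaled to gene length and depth, served for order between genes, and their implied library totals were 2.27 to 2.42 times the summed counts. Alternatives used DESeq2 1.42.0, limma 3.58.1 (limma-trend) on log2 CPM and on log2(FPKM + 0.1) or log2(FPKM + 1), other scalings, filters and thresholds, and left-out libraries. DESeq2 was run with its own size factors.

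The fit was tested on simulated data. The 10 genes and all lists were chosen with earlier results of these data known. Of each pathway list, up to 3 genes with the highest and up to 3 with the lowest log2 fold change among called genes without overlap between groups were named, and the gene with the highest mean FPKM. Called genes in counts of 5 or fewer are named too, chosen after their values were seen. Promoters came from a RefSeq table on GRCm38.p6. Of 42462 gene IDs shared with the GENCODE annotation at hand, 78.8% had the same position, so coordinates are those of the deposited table.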

Additional observations from a re-analysis of the deposited data

Results flagged for a closer look

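In 4 of 70 groups of libraries screened (35 genes, 2 groups each), the highest or lowest library stood far from the rest of its group by Dixon's criterion, and chance alone gives about 5% of groups. Myc was at 209 CPM in aged sham 1 and at 159 to 165 CPM in the other aged sham libraries. Tcf7 was at 5.65 CPM in aged sham 1 and at 4.40 CPM in each of the others. Tcf7l1 was at 57.0 CPM in aged sham 4 and at 65.0 to 65.9 CPM in the others. Wif1 was at 36.6 CPM in aged bleo 1 and at 19.8 to 24.1 CPM in the other aged bleo libraries. None of the 10 Wnt genes followed in every library met the criterion, and the calls of these 4 genes held on leaving out each library in turn.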

How the results depend on the processing

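Over 20 alternatives, 672 of 697 values of 35 named genes kept their direction and their call or lack of one. The stricter threshold was applied to counts of calls only. Of the 10 Wnt genes, 3 higher and 1 lower were called under every alternative but these: with a count of 10 in every library, which removes Lef1, 2 were higher; on log2(FPKM + 1), where the log2 fold change of Lef1 shrank to 0.49, 2 were higher; and at the stricter threshold (FDR under 0.05, fold change over 2), 0 were lower. Wnt4, never called, changed sign to 0.036 (limma on log2 CPM), 0.057 (log2(FPKM + 0.1)), 0.011 (log2(FPKM + 1)), 0.46 (without both libraries numbered 4) and 0.017 (replicate block), and ranged from -0.28 to 0.35 on leaving out each library. Dkk3 was -0.34 with only libraries whose names end in 4. Leaving out each library gave 4.93 to 5.87 for Lef1, 2.87 to 3.28 for Dkk2, 1.21 to 1.46 for Sfrp2 and -1.05 to -0.84 for Wnt11.

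The stricter threshold left 3 receptors higher and 0 lower and 0 transducers lower. Ligands higher were 2 with 10 counts in every library, and with no filter 6 were higher and 5 lower. Names ending in 4 only, with aged bleo 4 alone and assumed to vary like the aged sham libraries, gave 5 receptors, 4 R-spondins and 3 transducers lower. Leaving out each library gave 0 to 3 receptors lower, 1 to 2 transducers higher and 1 to 3 lower. Over all genes, 2082 were called higher and 1940 lower, against 960 and 825 on log2(FPKM + 1), 1224 and 934 under the stricter threshold, and 3059 and 3118 with names ending in 4. Where calls changed, the cause was not tested unless stated.

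Replicate numbers were not treated as pairs in the main fit. The deviations of libraries with the same number correlated at 0.09, 0.06, -0.13 and 0.33, and libraries 4 alone matched best. So few correlations cannot settle whether the numbers pair the samples. With the replicate block, aged bleo 5 having no partner, 1822 genes were called higher and 1714 lower, and 0 receptors were lower. Depth limits Lef1, Wnt7b and Wnt10a in aged sham, where counts were few. Over the alternatives, the log2 fold change of Wnt10a went down to 1.82, from 6.37 in the main fit. That of Wnt7b went down to 0.21 on log2(FPKM + 1), from 4.33 in the main fit, and its call was lost there.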

Other observations

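Wnt6 and Wnt10a, both called higher, are neighbours on the same strand, with 6193 bases between them (chr1:74771892-74804179 for the pair on mm10). The Wnt6 mean was 2.38 ± 1.28 CPM for the 4 uninjured and 6.23 ± 1.26 CPM for the 5 injured libraries (SD), with a log2 fold change of 1.38 (SE 0.32, edgeR FDR 0.0102), while that of Wnt10a was 6.37. In aged bleo Wnt10a was at 8.89 to 23.5 CPM and in aged sham at 0.141 to 0.258 CPM, near the floor. This pair was picked after its values had been seen.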
